A study of Mus musculus with 12 samples.

Results

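Mesenchymal stem cells (MSCs) treated with TGF-β1 in the culture supernatant of monocytic myeloid-derived suppressor cells (M-MDSCs) were compared with MSCs left untreated. The question was which part of the transcriptional programme induced by TGF-β1 was still present under the supernatant, which part was back at the level of untreated cells, and which genes lay above that level. The comparison took the TGFb1_M and Control columns of the deposited count table, which hold 6 of the 12 mRNA libraries of the series, 3 per group. Genes were kept when 3 or more of the 6 libraries of untreated MSCs and of MSCs with TGF-β1 alone reached an FPKM of 1, and 11619 of 55401 genes did. FPKM, the fragments mapped to a gene scaled by its length and by the size of the library, is the authors' level per length. Of the genes kept, 97 were below an FPKM of 1 in every untreated library and passed through the TGF-β1 libraries alone (84 rose and 0 fell under the supernatant), and 251 passed through the untreated libraries alone (23 rose and 189 fell). A gene that passed through the group in which it is high had to differ between the groups the filter reads, so the changes of such genes are a description. Such genes are pointed out among the lists and the named genes below. The members nearest to this limit were Tmem218, with a third-highest FPKM of 1.00066, and Snx32, with 1.00116, and the nearest genes left out were Fahd2a, with 0.999422, and Map4k1, with 0.998034.

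The MSCs were purchased bone marrow cells of C57BL/6 mice, verified by their surface antigens by the authors. The control group received no cytokine. The treated group received 5 ng/mL TGF-β1 for a day in M-MDSC supernatant, which had been collected from cells sorted as CD11b-positive, Ly6G-negative and Ly6C-high after C57BL/6 bone marrow was cultured with GM-CSF and IL-6. The 3 libraries with 5 ng/mL TGF-β1 alone define the programme, and the 3 libraries with TGF-β1 in the supernatant of granulocytic MDSCs (G-MDSCs) entered the estimate of the spread. MDSCs were kept in a medium based on RPMI and MSCs in DMEM, and neither MSCs with supernatant alone nor MSCs in unconditioned MDSC medium were analysed here. Effects of TGF-β1, of factors released by M-MDSCs and of the medium can therefore not be told apart in a comparison with untreated cells. Whether the 3 libraries of a group came from separate cultures is not stated, so the p-values measure the spread between these libraries, which may be technical.

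Each library held between 73977669 and 84565450 counts. MSC markers summed to 603 to 622 FPKM in untreated MSCs and 568 to 599 with TGF-β1/M-MDSC supernatant, and 8 of the 10 markers in untreated MSCs and 9 in treated MSCs reached an FPKM of 1. These sums joined members that went opposite ways, since Itgb1 lay between 247 and 263 FPKM without and between 371 and 394 FPKM with the treatment, and Ly6a between 241 and 251 and between 82.6 and 103 FPKM. Pdgfra, Thy1, Vcam1 and Cxcl12 were also lower in every treated library, and Nt5e, Pdgfrb and Cd44 higher. Transcripts of other organs moved with the treatment. Kidney tubule markers summed to 0.423 to 0.525 FPKM in untreated MSCs and to 33.3, 42.9 and 104.6 FPKM in M-MDSC supernatant replicates 1, 2 and 3, mainly from Kap and Gpx3. Hepatocyte markers were at 0 in untreated MSCs and summed to 0.526, 0.527 and 61.7 FPKM, and Alb, Apoa1 and Apoa2 were at 0 in replicates 1 and 2. Erythroid markers summed to 0.0744 to 0.457 FPKM and to 2.10 to 4.25 FPKM, while lymphoid and endothelial markers stayed at or below 0.115 and 0.538 FPKM in both groups. Myeloid markers summed to 28.9 to 31.0 FPKM without and 23.1 to 29.1 FPKM with the treatment, a sum carried by Cd14, at 22.7 to 23.5 and 18.5 to 21.4 FPKM. The others went both ways. Ly6g lay between 1.74 and 1.89 FPKM without and between 0 and 0.138 FPKM with the treatment, Ly6c2 between 1.59 and 1.83 FPKM and between 0.0816 and 0.196 FPKM, and Camp was at 0.0554 to 0.147 FPKM and then at 0. Higher were Lyz2, at 0, 0.153 and 0.191 FPKM without and 1.68, 0.651 and 2.29 FPKM with the treatment and S100a9 at 0 without and 0.980, 0.258 and 0.490 FPKM with it, and the markers at 0 in all 3 libraries numbered 11 of 23 in untreated and 4 in treated MSCs. The leukocyte marker Ptprc was at or below 0.00974 FPKM throughout. None of the kidney tubule, hepatocyte and erythroid markers was tested, because the filter reads only libraries without supernatant, which does not show that such transcripts are absent from the genes tested. No lymphoid or endothelial marker reached an FPKM of 1 in either group. In bulk libraries, fewer cells of a type and less RNA per cell cannot be told apart. The part of these transcripts in the results was not tested, and replicate 3, which stands apart, was left out in turn beside the results that rest on it.

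TGF-β1 binds a pair of receptor kinases that phosphorylate SMAD2 and SMAD3, which enter the nucleus with SMAD4 and switch on genes of collagen, matrix and the contractile apparatus. In mesenchymal cells this programme is known as myofibroblastic differentiation, with α-smooth muscle actin as its classical marker. Interferons act through a separate route, in which JAK kinases phosphorylate STAT proteins, and these join IRF9 on a short promoter element to induce antiviral and antigen presentation genes.

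In the group with TGF-β1/M-MDSC supernatant, 299 genes (2.57% of those tested) were called higher and 401 genes (3.45%) lower than in untreated MSCs. A call needed more than a 2-fold difference and an adjusted p-value under 0.05 in the edgeR quasi-likelihood test. Without the limit on fold change, 1932 genes rose (16.6%) and 2242 fell (19.3%). The median log2 fold change over all genes tested was -0.0016, a centre that the scaling sets near 0. The call was met by 272 raised (2.34%) and 454 lowered genes (3.91%) in the libraries with TGF-β1 alone, set against the same untreated libraries, and these 726 genes are the programme followed here. Each gene was placed by its test against untreated MSCs under the supernatant. It remained if it passed in the direction given by TGF-β1, was back at baseline if it did not pass and its 95% interval lay inside a 1.5-fold margin (0.585 on the log2 scale), was past baseline if it passed in the opposite direction, and was unresolved otherwise. The programme was selected on the untreated and TGF-β1 libraries that also serve in the comparisons here, so the counts below, against either group, share their error and are a description.

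Of the 272 genes raised by TGF-β1, 260 (95.6%) remained above untreated MSCs, 215 of them still more than 2-fold. The other 12 were unresolved, and 0 were back at baseline or past it. The median log2 fold change of the 272 genes was 1.58 with TGF-β1 alone and 1.45 with TGF-β1/M-MDSC supernatant. Against TGF-β1 alone 41 of them were lower and 9 higher (1.84% and 2.45% of all genes tested were), but they had been chosen as high in these same TGF-β1 libraries, which favours the former. Of the 454 genes lowered by TGF-β1, 386 (85.0%) remained lower, 330 of them more than 2-fold, 3 were back at baseline, 16 were unresolved and 49 (10.8%) were higher than in untreated MSCs. The median log2 fold change of the 49 was -1.74 with TGF-β1 alone and 1.71 under the supernatant. Without M-MDSC supernatant replicate 3, 257 of 273 raised genes and 383 lowered genes remained and 47 lay past baseline. The unresolved raised genes numbered 21 without untreated replicate 1 and 20 without treated replicate 2, and the unresolved lowered genes 25 to 30 without untreated replicate 2 or 3 or treated replicate 1 or 2. The 3 lowered genes at baseline became 5 without TGF-β1 replicate 2, and 1 raised gene was at baseline without untreated replicate 3 or TGF-β1 replicate 1.

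**Figure D1:**
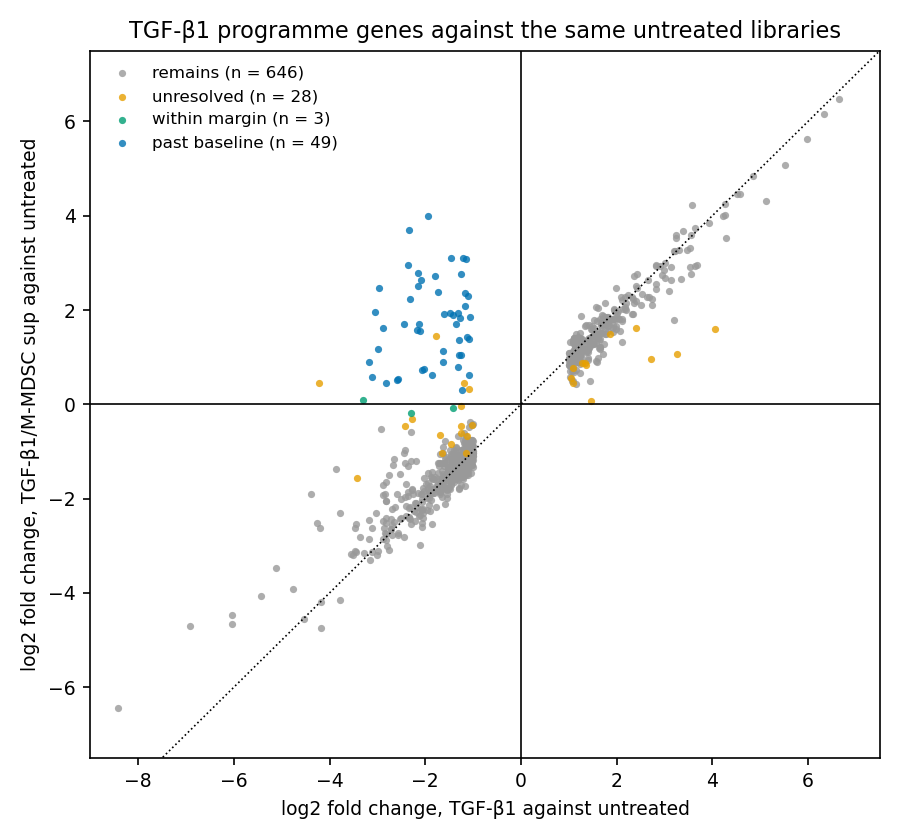
Log2 fold changes against untreated MSCs for the 726 programme genes, with TGF-β1 alone on the horizontal axis and TGF-β1/M-MDSC supernatant on the vertical axis (3 libraries per group, edgeR); the dotted line marks equal values and colours give the placement. The genes that remained, 260 raised and 386 lowered, lie along the dotted line, whereas the 49 genes past baseline form a cloud in the upper left, up to a log2 fold change of 3.99 for Ifi44. Both axes share the untreated libraries.

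Among called genes whose groups did not overlap, those raised most against untreated MSCs encoded an enzyme, a collagen chain and signalling proteins. Nat8l (ENSMUSG00000048142, chromosome 5, 33995984 to 34005916, GRCm38), which encodes the N-acetylaspartate synthetase, had 0.0198, 0.0363 and 0.0217 FPKM in the untreated libraries and 2.61, 2.33 and 2.02 FPKM with TGF-β1/M-MDSC supernatant. The log2 fold change was 6.47 (± 0.198 standard error, SE). Libraries of the groups did not overlap for 47.8% of all genes tested, so a lack of overlap is common in this comparison. Col5a3 (chromosome 9, 20770050 to 20815067), a chain of the fibril-regulating type V collagen, had 0.348, 0.410 and 0.442 FPKM without treatment and 32.6, 27.6 and 23.9 FPKM with it. Its log2 fold change was 6.17 (± 0.153 SE). Both genes were below an FPKM of 1 in every untreated library and passed the filter through the libraries with TGF-β1 alone, where they were high, so their change is given as a description.

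The 8 largest rises also included those of the protease gene Ctsw, the RANKL decoy receptor gene Tnfrsf11b, the lipolysis inhibitor gene G0s2, the Notch ligand gene Jag1 and the matricellular gene Postn. Apart from Jag1 they also passed the filter only through the TGF-β1 libraries. Their log2 fold changes were 5.07, 4.83, 4.47, 4.46 and 4.31, in that order. Jag1 was the most abundant of these 5, at 1.14 ± 0.130 FPKM in untreated MSCs and 24.5 ± 2.95 FPKM with TGF-β1/M-MDSC supernatant (mean ± SD of 3 libraries, here and below). Of the 8, only Postn passed as different from TGF-β1 alone, by less than 2-fold. It was kept through that group, so its values are a description. It had 3.59, 3.28 and 3.03 FPKM with TGF-β1, 1.96, 1.99 and 1.75 FPKM with TGF-β1/M-MDSC supernatant and 0.103, 0.120 and 0.0692 FPKM without treatment. The supernatant libraries overlapped neither other group, with a log2 fold change of -0.81 against TGF-β1 alone.

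Of the 10 myofibroblast markers that the study displayed, 8 rose against untreated MSCs, 0 fell and 2 did not pass, where 16.6% and 19.3% of all genes tested rose and fell. These 2 shares are the background of every list count of the supernatant group against untreated MSCs given below. The median log2 fold change of the 10 markers was 1.30, and 1.42 with TGF-β1 alone, against -0.0016 and 0.0025 over all genes tested. Against TGF-β1 alone 5 of the 10 fell and 0 rose, where 1.84% and 2.45% of all genes tested did. This list was chosen on these libraries and is not independent evidence of its direction. Ccn2 (ENSMUSG00000019997, chromosome 10, 24595442 to 24598683), which encodes a matricellular growth factor and is a direct SMAD target, had 253, 281 and 258 FPKM in untreated MSCs and 1304, 1346 and 1253 FPKM with TGF-β1/M-MDSC supernatant. The treated libraries lay far above the untreated ones, with a log2 fold change of 2.34 (± 0.056 SE, adjusted p = 7.31e-10). Col3a1 (chromosome 1, 45311538 to 45349706), the fibrillar collagen of early scar tissue, had 33.0, 32.7 and 32.2 FPKM and 85.8, 84.0 and 81.3 FPKM, a log2 fold change of 1.40. Col1a1 (chromosome 11, 94936224 to 94953042), a chain of the main collagen of scar and bone, had 481, 523 and 492 FPKM and 1039, 881 and 873 FPKM, a log2 fold change of 0.94 (± 0.064 SE, adjusted p = 9.46e-07). The groups did not overlap for either collagen, and treated replicate 1 was the highest for both. Timp1, an inhibitor of matrix metalloproteinases, rose by 1.40 from 397 ± 11.3 to 1021 ± 21.3 FPKM. Col5a1, Col5a2 and Col6a3 rose by 1.68, 0.98 and 1.21 on the log2 scale.

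The 2 markers that did not pass were Acta2 and Fn1. Acta2 (ENSMUSG00000035783, chromosome 19, 34241090 to 34255590), which encodes α-smooth muscle actin, had 1436, 1623 and 1525 FPKM in untreated MSCs, 2082, 2175 and 2113 FPKM with TGF-β1 and 1508, 1636 and 1639 FPKM with TGF-β1/M-MDSC supernatant. The supernatant libraries overlapped the untreated ones and lay below every TGF-β1 library. The log2 fold change against untreated MSCs was 0.10 (± 0.054 SE, 95% interval from -0.018 to 0.22, adjusted p = 0.179), while that against TGF-β1 alone was -0.43 (adjusted p = 0.000775). Fn1 (chromosome 1, 71585520 to 71653175), the gene of the cell-binding glycoprotein fibronectin, had 402, 379 and 358 FPKM without treatment and 409, 393 and 379 FPKM with it. These ranges overlapped, with a log2 fold change of 0.093 (95% interval from -0.080 to 0.27, adjusted p = 0.401), and TGF-β1 alone gave 507 ± 34.9 FPKM. Both intervals lie inside the 1.5-fold margin, but TGF-β1 raised either gene less than 2-fold, so neither belongs to the 272.

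**Figure D2:**
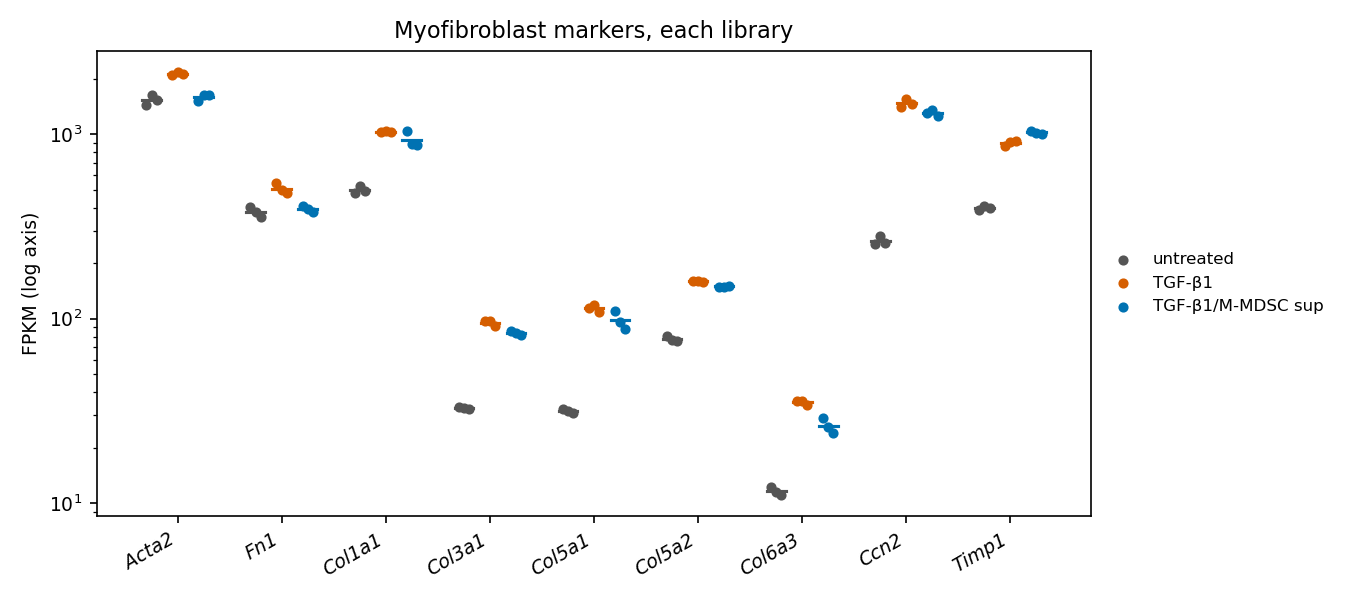
FPKM on a log axis of 9 myofibroblast markers in each of 3 untreated libraries, 3 with TGF-β1 and 3 with TGF-β1/M-MDSC supernatant (points), with group means as short lines. With the supernatant Acta2 and Fn1 overlap untreated MSCs, whereas Ccn2, Timp1 and the 5 collagens lie above every untreated library.

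Genes of this kind became visible when the limit on fold change was dropped. Of the 1913 genes that TGF-β1 raised at any size, 1440 (75.3%) remained above untreated MSCs, 410 (21.4%) lay within the margin of baseline, 62 were unresolved and 1, Klhl2, was past it (log2 fold change -0.16, adjusted p = 0.0205). Klhl2 no longer passed without untreated replicate 1 or 3 or treated replicate 1 or 2 (from -0.16 to -0.14). Since a gene raised by less than the margin can lie within it without having moved, the test against TGF-β1 alone was added, and 47 of the 410 were also lower than with TGF-β1 (1.84% of all genes were), in whose libraries they had been chosen as raised. They included Acta2, Tagln and Tpm2 of the contractile apparatus and Fn1, Sparc, Thbs1, Col6a2, Col11a1 and Col12a1 of the matrix. Tagln, which encodes the actin-binding protein transgelin, had 120.5, 127 and 132 FPKM in untreated MSCs and 119, 130.1 and 143 FPKM with TGF-β1/M-MDSC supernatant. The ranges overlapped, with a log2 fold change of 0.087 (95% interval from -0.095 to 0.27, adjusted p = 0.46), against 0.64 with TGF-β1 alone. Sparc, the gene of the collagen-binding protein osteonectin, had 576 ± 27.2 FPKM without and 588 ± 8.31 FPKM with the treatment. Thbs1, which encodes thrombospondin and can activate latent TGF-β, had 758 ± 27.6 FPKM and 712 ± 12.9 FPKM. For these 2 the log2 fold changes of 0.069 and -0.050 did not pass (adjusted p = 0.292 and 0.548), compared with 0.34 and 0.20 with TGF-β1 alone, which did. Tpm2, a tropomyosin gene, differed by 0.074 from untreated MSCs (adjusted p = 0.22).

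Over the full list of 36 contractile and actin genes, 30 were tested, of which 7 rose, 5 fell and 18 did not pass, where 16.6% of all genes tested rose and 19.3% fell. The median log2 fold change was 0.038, compared with 0.27 with TGF-β1 alone. Pdlim7, an actin-associated adaptor, rose by 0.89 to 45.6 ± 4.10 FPKM, and Mrtfa, the coactivator of serum response factor, rose by 0.66. Lima1 and Actn4, which cross-link actin filaments, fell by 0.98 and 0.47 on the log2 scale, and Fhl1, Cnn2 and the tropomyosin gene Tpm1 fell by 0.51, 0.30 and 0.19. Fhl1 no longer passed without untreated replicate 2 or 3 or any one of the treated libraries (from -0.57 to -0.36), nor with no filter on FPKM (-0.50). Tpm4, another tropomyosin, was expressed at 352 ± 6.77 FPKM in untreated MSCs and 353 ± 10.3 FPKM with the treatment (adjusted p = 0.336).

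Of 22 collagen genes 19 were tested, and 13 rose, 3 fell and 3 did not pass (16.6% and 19.3% of all genes rose and fell), with a median log2 fold change of 0.47 against 0.79 with TGF-β1 alone. Of the 13, Col5a3 and Col27a1 passed the filter through the TGF-β1 libraries alone. Col27a1 had 0.534 ± 0.0695 FPKM without and 2.01 ± 0.247 FPKM with the treatment. Col7a1, the anchoring fibril collagen, rose from 1.61 ± 0.0855 to 10.6 ± 1.07 FPKM. Col4a5 of basement membranes, Col8a1 and Col6a1 fell by 1.37, 0.57 and 0.35 on the log2 scale. Col12a1, Col11a1 and Col6a2 did not pass, with log2 fold changes of 0.23, 0.19 and -0.18 (adjusted p = 0.172, 0.129 and 0.143). Col11a1 passed without untreated replicate 1 (0.26) and Col6a2 without treated replicate 1 (-0.28). Col12a1, which lines collagen fibrils, had 16.5, 13.3 and 13.0 FPKM without and 17.9, 15.6 and 15.5 FPKM with the treatment, and its groups overlapped. Against TGF-β1 alone, 9 of the 19 collagens fell and 0 rose, where 1.84% and 2.45% of all genes tested did.

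Among 21 tested enzymes of collagen processing, 12 rose, 4 fell and 5 did not pass, with a median of 0.29. The share that fell was near the 19.3% of all genes, whereas 16.6% of all genes rose. Pcolce2, which enhances procollagen cleavage, rose by 1.77, and Bmp1, the protease that cleaves the C-propeptide of procollagen, rose by 1.32. P4ha3, a prolyl hydroxylase subunit, and Plod2, a lysyl hydroxylase, rose by 1.08 and 0.97. Pcolce, a paralog of Pcolce2, fell from 129 ± 7.16 to 64.0 ± 1.66 FPKM, and the procollagen N-proteinase gene Adamts2 and the genes Loxl4 and P3h2 fell by 0.80, 0.60 and 0.53 on the log2 scale. Of 33 tested matrix glycoprotein and matricellular genes, 14 rose, 12 fell and 7 did not pass (16.6% and 19.3% of all genes), with a median of 0.069. Among them Fmod and Postn passed the filter through the TGF-β1 libraries alone, and Ccn3 and Mfap2 through the untreated ones alone. Fmod, the fibril-binding proteoglycan fibromodulin, and Ccn3 had log2 fold changes of 2.76 and -3.13. The basement membrane gene Nid2 fell by 2.85 on the log2 scale.

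Of 12 tested TGF-β ligands, receptors and SMADs, 6 rose and 3 fell, with a median of 0.25. Of all genes 16.6% rose, and 19.3% fell, which is near the share of this list. Tgfb1 (chromosome 7, 25687002 to 25705077), the ligand's own gene, had 3.33, 3.58 and 3.92 FPKM in untreated MSCs and 13.6, 13.0 and 10.4 FPKM with TGF-β1/M-MDSC supernatant. The groups did not overlap, with a log2 fold change of 1.81 (± 0.132 SE, adjusted p = 1.62e-06). Smad5, a mediator of BMP signals, rose by 1.00. Tgfbr2, the ligand-binding receptor kinase, fell from 36.8 ± 0.613 to 17.4 ± 0.478 FPKM. The co-receptor gene Tgfbr3 fell by 1.91 and the transducer gene Smad3 by 1.05 on the log2 scale. Tgfbr3 was the member of this list that differed from TGF-β1 alone, with 3.76 ± 0.691 FPKM there and 6.15 ± 0.515 FPKM under the supernatant (log2 fold change 0.69, adjusted p = 0.00845). Of all genes tested 2.45% were higher in that comparison.

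Of 33 tested SMAD feedback and early target genes, 17 rose and 10 fell (16.6% and 19.3% of all genes), with a median of 0.24. The cytokine gene Il11 rose by 3.54 on the log2 scale, from 3.77 ± 0.255 to 42.6 ± 4.02 FPKM (± 0.098 SE, adjusted p = 1.25e-09). Inhba, which encodes the subunit of activin A, rose by 1.73, and Nox4, the oxidase that makes hydrogen peroxide in myofibroblasts, rose by 2.03, although it passed the filter through the TGF-β1 libraries alone. Id3, an inhibitor of helix-loop-helix factors, and the AP-1 gene Fos fell by 1.88 and 1.91 on the log2 scale. The change of Id3 was tight, with 45.0, 46.9 and 47.0 FPKM in untreated MSCs and 12.2, 12.2 and 12.4 FPKM with the treatment.

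ATF4 is a transcription factor that induces enzymes of serine, glycine and proline synthesis, and collagen is rich in glycine and proline. Of 27 tested ATF4 targets and genes of these pathways, 21 rose, 0 fell (1 without TGF-β1 replicate 3) and 6 did not pass, where 16.6% of all genes rose and 19.3% fell. The median was 0.76 in this comparison and 0.76 with TGF-β1 alone. Of the 27, 0 differed when compared with TGF-β1 alone, where 2.45% of all genes were higher and 1.84% lower. Cth, the cystathionine cleaving enzyme, had 6.76, 7.44 and 7.74 FPKM without and 28.7, 29.4 and 29.1 FPKM with the treatment. The groups were far apart, with a log2 fold change of 2.03 (± 0.072 SE, adjusted p = 7.20e-09). Ddit4, an inhibitor of mTORC1, Trib3, a pseudokinase, and Slc7a11, the cystine transporter, rose by 1.57, 1.45 and 1.08. Atf4 itself did not pass. It had 113, 111 and 230.1 FPKM in untreated MSCs and 311, 160.2 and 287 FPKM with the treatment, and untreated replicate 3 lay above treated replicate 2 (log2 fold change 0.78, adjusted p = 0.165). Without untreated replicate 3 the log2 fold change of Atf4 was 1.21 and passed. Psat1 of serine synthesis was at 149.8 ± 3.60 and 134 ± 4.95 FPKM (adjusted p = 0.163), and passed as lower without TGF-β1 replicate 3 (-0.12).

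Of 19 tested genes of glycolysis and lactate export, 3 rose, near the 16.6% of all genes, and 7 fell, against 19.3% of all genes, with a median of -0.11. The glucose transporter gene Slc2a1, the hexokinase gene Hk2 and the lactate exporter gene Slc16a3 rose by 0.53, 0.72 and 0.40, although Slc16a3 no longer passed without untreated replicate 3 (0.31). Pdk1, which restrains pyruvate dehydrogenase, Pfkm, a phosphofructokinase, and the lactate carrier gene Slc16a1 fell by 0.95, 0.51 and 0.76 on the log2 scale. Ldha, which makes lactate, had 298, 317 and 302 FPKM in untreated MSCs and 282, 269.6 and 275 FPKM under the supernatant. The groups did not overlap, but the difference of -0.11 did not pass (adjusted p = 0.0799), although it did with library size scaling and with limma (-0.15 in each). Ldha was higher than with TGF-β1 alone by 0.21 (adjusted p = 0.0227). Pkm was at 587 ± 11.3 and 544 ± 23.2 FPKM. Of 22 tested genes of cholesterol synthesis and uptake, 6 rose, 7 fell and 9 did not pass (16.6% and 19.3% of all genes rose and fell), with a median of 0.033 against 0.24 with TGF-β1 alone, and 12 of the 22 fell against TGF-β1 alone, where 1.84% of all genes did. Cyp51, a sterol demethylase, rose by 0.36 from untreated MSCs against 0.63 with TGF-β1 alone. Dhcr7, Idi1 and Mvk of the same pathway fell below untreated MSCs by 0.57, 0.48 and 0.39 on the log2 scale.

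Among called genes whose groups did not overlap, the 8 lowered most all belonged to the lowered part of the programme. With TGF-β1 alone each of them was below an FPKM of 1 in every library, so they passed the filter through the untreated libraries, where they were high. Dio3 (chromosome 12, 110279068 to 110281097), the deiodinase that inactivates thyroid hormone, had 2.72, 2.86 and 2.94 FPKM in untreated MSCs and 0.0223, 0.0673 and 0.0001 FPKM with TGF-β1/M-MDSC supernatant, where 0.0001 stands for a count of 0. It fell by 6.43 on the log2 scale (± 0.716 SE), a value that rests on a few counts in the treated group. Angptl7, a secreted angiopoietin-like protein, had 8.65, 8.57 and 8.94 FPKM without and 0.113, 0.272 and 0.756 FPKM with the treatment, and fell by 4.46. Aldh1a1 and Aldh1a7, aldehyde dehydrogenases of which the former makes retinoic acid, fell by 4.07 and 4.71, and the glycosyltransferase gene Galnt15 fell by 4.66. Krt19, Ly6g and Rerg completed the 8 largest falls, with drops of 4.20, 4.55 and 4.16. Galnt15 had 0.0283 ± 0.00980 FPKM with TGF-β1 alone and 0.0766 ± 0.0361 FPKM under the supernatant. Ly6g is better known as a surface marker of neutrophils, and it was at 1.83 ± 0.0842 FPKM in these untreated MSCs.

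Of 29 complement and acute-phase genes 10 were tested, and 0 rose, 6 fell and 4 did not pass (16.6% and 19.3% of all genes rose and fell), with a median of -0.99 against -2.29 with TGF-β1 alone. Against TGF-β1 alone 4 of the 10 rose and 0 fell, where 2.45% and 1.84% of all genes did. C1rb, C1s1, C3, C4b and Serping1 passed the filter through the untreated libraries alone, and 4 of these 5 are among the 6 that fell. C1ra (chromosome 6, 124512405 to 124523443), a protease of the first complement component, had 9.68, 9.61 and 10.4 FPKM in untreated MSCs, 1.33, 1.25 and 1.28 FPKM with TGF-β1 and 2.52, 2.32 and 2.77 FPKM with TGF-β1/M-MDSC supernatant. The 3 groups were fully separated, and the log2 fold change of C1ra was -1.92 against untreated MSCs (adjusted p = 3.68e-08) and 0.96 against TGF-β1 alone (adjusted p = 4.95e-05). Serping1, the inhibitor of that protease, was likewise 1.40 above TGF-β1 alone and fell by 1.28 from untreated MSCs. The protease genes C1rb and C1s1 fell by 2.31 and 2.46. C3, the central complement component, was unresolved, with 1.89, 1.84 and 1.52 FPKM without and 1.01, 0.798 and 2.30 FPKM with the treatment (log2 fold change -0.32, adjusted p = 0.514). Treated replicate 3, which held hepatocyte transcripts, was the highest of the 3. Without it C3 fell by 0.91, and the part of those transcripts in its level was not tested. Cd59a, Cr1l and Cfp did not pass either, with log2 fold changes of -0.71, 0.31 and 0.27. Cd59a passed with only the groups compared and without TGF-β1 replicate 2 (-0.71 in both).

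Of 16 tested chemokines and cytokines, 2 rose, near the 16.6% of all genes, and 11 fell, against 19.3% of all genes, with a median of -1.17. Of the 11, Cxcl5, Ccl9, Cxcl1, Cxcl10 and Tslp passed the filter through the untreated libraries alone. Cxcl5, which attracts neutrophils, had 7.76, 5.79 and 7.36 FPKM in untreated MSCs and 1.02, 0.933 and 1.32 FPKM with the treatment. The groups did not overlap, with log2 fold changes of -2.63 against untreated MSCs and 1.56 against TGF-β1 alone. The pleiotropic cytokine gene Il6 and the chemokine gene Cxcl16 rose by 0.97 and 0.93. Ccl9, Ccl5 and Tslp fell by 3.13, 1.25 and 1.34 on the log2 scale, and the alarmin gene Il33 fell from 4.13 ± 0.373 to 0.997 ± 0.0975 FPKM. Lif, a cytokine of the IL-6 family, was at 1.96 ± 0.162 FPKM without and 2.08 ± 0.171 FPKM with the treatment (adjusted p = 0.287). Among 15 tested NF-κB feedback genes 1 rose (2 with DESeq2) and 6 fell, with a median of -0.27, where 16.6% of all genes rose and 19.3% fell. Nfkbiz rose by 0.40, and the genes that fell included Bcl3, Nfkbia and Tnip1, with log2 fold changes of -1.25, -0.56 and -0.54, although Bcl3 passed the filter through the untreated libraries alone. Rela, the transactivating subunit, differed by -0.25 and did not pass (adjusted p = 0.0892), although it did with library size scaling (-0.29), with only the groups compared and without TGF-β1 replicate 3 (-0.24 in both).

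Interleukin-15 was of interest to the study as a secreted product of M-MDSCs. In the MSCs, 5 of its 12 pathway genes were tested, and the cytokine and its receptor chains were not among them. All 5 fell, as did 19.3% of all genes, with a median of -0.45, and Stat5a had passed the filter through the untreated libraries alone. The signal transducer genes Stat5a, Stat5b and Stat3 fell by 1.54, 0.45 and 0.42, the kinase gene Jak1 fell by 0.30, and Pik3r1, the regulatory subunit of PI3-kinase, fell by 1.41. Against TGF-β1 alone 0 of the 5 passed, where 2.45% of all genes were higher and 1.84% lower. Of 32 tested Ras, Erk1/2 and feedback genes, 9 rose, 6 fell and 17 did not pass, with a median of 0.064, and the share that fell was close to the 19.3% of all genes, while 16.6% of all genes rose. Map2k1 (chromosome 9, 64185770 to 64253631), the kinase that phosphorylates Erk1/2, was the 1 member of the 32 that also differed from TGF-β1 alone. That share is near the 2.45% of all genes that were higher, so it says nothing about the list. It had 24.3, 26.1 and 24.1 FPKM in untreated MSCs, 30.7, 32.9 and 31.7 FPKM with TGF-β1 and 44.9, 43.3 and 43.4 FPKM with TGF-β1/M-MDSC supernatant. The 3 groups were separated, with log2 fold changes of 0.86 against untreated MSCs (adjusted p = 1.66e-07) and 0.45 against TGF-β1 alone (adjusted p = 0.000188). The Erk phosphatase gene Dusp5 and the small GTPase gene Rasl11b rose by 0.93 and 1.49 (Rasl11b passed the filter through the TGF-β1 libraries alone), whereas Egr1, an immediate early target of Erk, and Rras2 fell by 0.90 and 0.99. Grb2 had 15.4, 32.3 and 30.3 FPKM in untreated MSCs, where replicate 1 stood apart, and 35.4, 36.4 and 36.5 FPKM with the treatment, and did not pass (adjusted p = 0.215).

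Of 15 tested adhesion molecules and integrins, 10 rose, against 16.6% of all genes, and 4 fell, not far from the 19.3% of all genes, with a median of 0.41. Of the 10, Alcam passed the filter through the TGF-β1 libraries alone. Cd44 (chromosome 2, 102811141 to 102901665), the hyaluronan receptor, had 41.1, 38.8 and 38.5 FPKM in untreated MSCs and 51.0, 48.5 and 56.4 FPKM with TGF-β1/M-MDSC supernatant. The groups did not overlap and Cd44 rose by 0.44 on the log2 scale (adjusted p = 0.00572), and the value against TGF-β1 alone was -0.047 (adjusted p = 0.877). Vcam1, the ligand of integrin α4β1, had 4.20, 3.95 and 3.76 FPKM and 1.31, 1.39 and 1.71 FPKM and fell by 1.39 on the log2 scale (adjusted p = 6.11e-06). Icam1 did not pass the filter. The fibronectin receptor gene Itga5 and the adhesion gene Ncam1 rose by 2.02 and 1.51, and the laminin receptor genes Itga3 and Itga6 and the surface antigen gene Thy1 fell by 2.02, 1.55 and 1.33. Cdh2, N-cadherin, was the member that did not pass (log2 fold change -0.13, adjusted p = 0.274).

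Of 24 tested growth factor and lineage genes, 4 rose, near the 16.6% of all genes, and 13 fell, against 19.3% of all genes, with a median of -0.84. Vegfa, the main angiogenic factor, rose by 2.23 on the log2 scale, from 31.3 ± 0.663 to 142 ± 7.54 FPKM, and the lymphangiogenic factor gene Vegfc and the receptor gene Pdgfrb rose by 2.16 and 0.29. The growth arrest gene Gas1, the adipogenic factor Cebpd and the lineage antigen gene Ly6c1 fell by 3.17, 2.16 and 2.51. Ly6c1, Gas6 and Igf1 of the 13 passed the filter through the untreated libraries alone. Of 32 tested replication and mitosis genes, 4 rose, 10 fell and 18 did not pass, with a median of -0.085, where 16.6% of all genes rose and 19.3% fell. The 4 became 2 with only the groups compared and without treated replicate 1 or 2, and the 10 became 6 with no filter and without untreated replicate 1 or treated replicate 3. Mcm6, Cdkn1a, Aurka and Bub1 rose by 0.27, 0.24, 0.22 and 0.14. Cdkn1a no longer passed without untreated replicate 1 or treated replicate 1 or 2 (0.20 to 0.23) or with only the groups compared (0.25). Bub1 no longer passed without untreated replicate 2 or treated replicate 1 or 2 (0.098 to 0.14), with the replicate number as a block (0.14), with only the groups compared (0.15), with library size scaling (0.10) or with limma (0.10 in both fits). Ccnd1, cyclin D1, and Tk1, thymidine kinase, fell by 0.42 and 0.52.

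**Figure D3:**
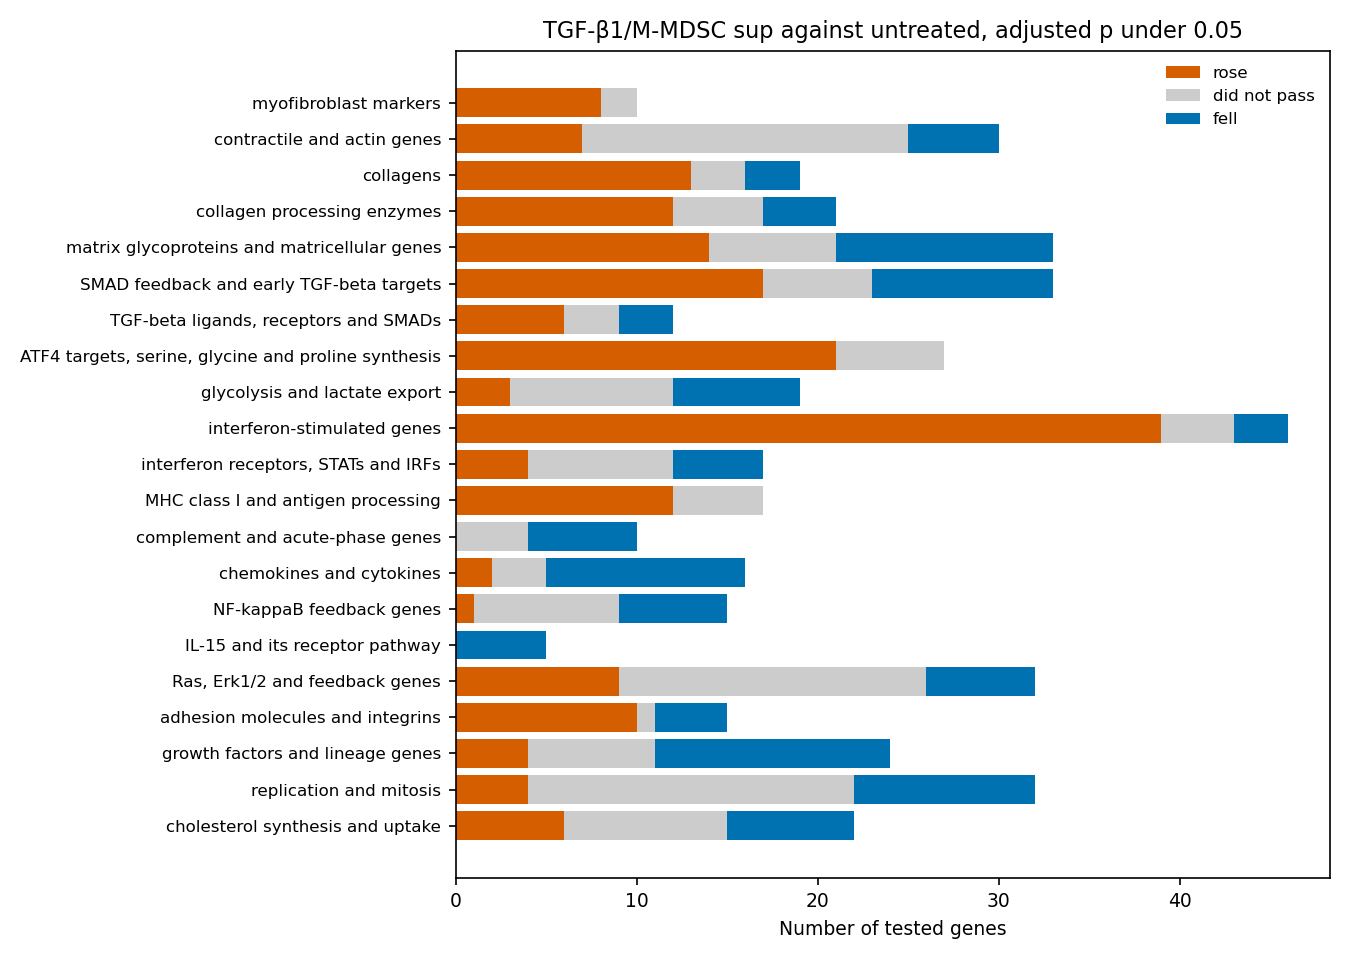
Number of tested members of each of 21 gene lists that rose, fell or did not pass an adjusted p-value of 0.05 in MSCs with TGF-β1/M-MDSC supernatant against untreated MSCs (3 libraries per group, edgeR). Interferon-stimulated genes have the most members that rose, 39 of 46, and complement genes and the IL-15 pathway have none.

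The genes past baseline were lowered by TGF-β1 and lay above untreated MSCs under the supernatant. Of 59 interferon-stimulated genes 46 were tested, of which 39 rose, 3 fell and 4 did not pass against untreated MSCs, where 16.6% and 19.3% of all genes rose and fell. The median log2 fold change was 1.64, and -1.32 with TGF-β1 alone. With TGF-β1 alone 41 of the 46 fell and 0 rose against untreated MSCs, where 18.4% and 16.5% of all genes tested did. In a direct comparison with TGF-β1 in G-MDSC supernatant, 10 of the 46 differed, where 0.146% of all genes did. Rsad2, Ifit2 and Ifitm2 fell by 0.51, 0.45 and 0.36 on the log2 scale, so that not every gene of the group lay above untreated MSCs, and Oasl1, Cmpk2 and Ifi27l2a were among those that did not pass. Rsad2 no longer passed without untreated replicate 2 or treated replicate 2 or 3 (from -0.50 to -0.46). Of the 46, 16 passed the filter through the untreated libraries alone, of which 14 rose and 1, Rsad2, fell. Cmpk2, Gbp3, Ifi44, Xaf1 and Zbp1 are also among the 16. The filter favours a fall of these 16 with TGF-β1 alone, so their part of the 41 is a description. The list holds 25 of the 49 genes past baseline. Each of the 49 also passed as higher than with TGF-β1 alone, a direction that their choice fixes.

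Among these genes, the letters of an interferon-stimulated response element, the site of the complex of STAT proteins with IRF9, were looked for in the promoters. Windows of 300 bases, from 250 before to 50 after the transcription start, were taken from RefSeq on GRCm38.p6 and searched for GAAANNGAAA on both strands, that is also for TTTCNNTTTC, and overlapping matches were counted. Of 11619 tested genes, 8204 had a window and 3.65% of those held the letters. Among genes with a window, the letters were in 24 of the 38 past baseline (63.2%). They were in 12 of the 280 lowered genes that remained (4.29%) and in 5 of the 173 raised genes that remained (2.89%). Neighbouring genes of a family can share promoter sequence, a match is a description of the letters and not a bound site, and no binding was measured. A 100-base stretch is printed for 5 of the genes past baseline with the largest rises, to show where the letters stand, in capitals, on the strand of the gene from 5′ to 3′ (Bst2 at chr8:71537548-71537647, Oas1a at chr5:120907526-120907625, Oas1g at chr5:120887614-120887713 and Isg15 at chr4:156200842-156200941 on the minus strand, Gbp3 at chr3:142559944-142560043 on the plus strand).
Bst2: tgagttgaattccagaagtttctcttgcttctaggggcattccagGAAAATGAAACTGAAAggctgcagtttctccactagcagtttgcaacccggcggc
Oas1a: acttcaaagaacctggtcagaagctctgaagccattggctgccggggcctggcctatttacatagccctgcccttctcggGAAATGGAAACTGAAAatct
Oas1g: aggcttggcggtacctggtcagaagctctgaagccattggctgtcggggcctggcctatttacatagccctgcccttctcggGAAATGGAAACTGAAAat
Gbp3: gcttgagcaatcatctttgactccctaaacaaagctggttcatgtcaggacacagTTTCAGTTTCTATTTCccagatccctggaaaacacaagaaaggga
Isg15: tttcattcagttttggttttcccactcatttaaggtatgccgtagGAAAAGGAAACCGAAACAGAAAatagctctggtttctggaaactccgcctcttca

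In each of these stretches overlapping copies formed a run, with 3 copies in Isg15 and 2 in the others, and the run of the paralogs Oas1a and Oas1g was the same. The windows of Ifi44 and Xaf1 held no match, and Usp18 had no window.

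Usp18 (ENSMUSG00000030107, chromosome 6, 121245906 to 121270917), the protease that removes ISG15 from proteins and dampens the interferon receptor, had 5.21, 5.24 and 6.79 FPKM in untreated MSCs, 0.788, 1.46 and 0.985 FPKM with TGF-β1 and 74.3, 72.7 and 71.2 FPKM with TGF-β1/M-MDSC supernatant. The supernatant libraries were far above both other groups, and the log2 fold change against untreated MSCs was 3.70 (± 0.190 SE, adjusted p = 1.10e-07), a 13.0-fold rise. Ifi44 (chromosome 3, 151730922 to 151749960), an antiviral gene, had 1.70, 1.74 and 2.48 FPKM without treatment and 28.7, 32.6 and 30.1 FPKM with it. It had the largest change of the 49, 3.99 (± 0.210 SE, adjusted p = 1.37e-07). Ifi44 passed the filter through the untreated libraries alone, so its change is a description. Bst2 (ENSMUSG00000046718, chromosome 8, 71534255 to 71537456), which encodes tetherin, a membrane protein that holds virions on the cell, had 71.6, 70.2 and 76.9 FPKM without treatment and 618, 615 and 584 FPKM with it. Among the 49 only Ifitm3, which blocks viral entry, was more abundant, at 576 ± 23.2 FPKM without and 1441 ± 34.1 FPKM with the treatment (log2 fold change 1.36). Bst2 rose 8.53-fold (log2 fold change 3.09, adjusted p = 1.72e-09). Isg15 (chromosome 4, 156199455 to 156200796), the ubiquitin-like modifier, had 15.1, 18.8 and 20.4 FPKM and 122, 121 and 117 FPKM, a log2 fold change of 2.76. None of these groups overlapped.

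Oas1a (chromosome 5, 120896256 to 120907521) and its neighbour Oas1g, which synthesise the activator of RNase L, rose by 3.09 and 3.11, Oas1a from 7.23 ± 1.18 to 59.9 ± 1.51 FPKM. The tool that counted the reads is not stated, so the split of reads between such near-identical paralogs is uncertain. Gbp3, a guanylate-binding protein, had 2.88, 3.18 and 3.84 FPKM in untreated MSCs and 24.0, 25.7 and 25.3 FPKM with the treatment, and rose by 2.96. Xaf1, an antagonist of the inhibitors of apoptosis, rose by 2.78 from 1.69 ± 0.467 to 11.3 ± 0.387 FPKM. Sensors of nucleic acid were among the genes past baseline. Zbp1, which senses left-handed nucleic acid, rose by 2.63 and Ddx58, the RNA sensor RIG-I, by 1.90 from 6.65 ± 0.322 to 24.2 ± 0.437 FPKM. Tlr3, the receptor of double-stranded RNA, had 1.03, 1.06 and 1.16 FPKM and 1.72, 1.98 and 2.80 FPKM, separated but low in level, and rose by 1.04 (adjusted p = 0.00181). Gbp3, Xaf1, Zbp1 and Tlr3 passed the filter through the untreated libraries alone, so their changes are a description. The smaller rises included that of Ifit1, which binds uncapped viral RNA, by 0.55 from 26.3 ± 0.937 to 37.3 ± 1.62 FPKM. Ifit3 rose by 1.62, with the same limit on a near-identical copy.

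Of 17 tested interferon receptors, STATs and IRFs, 4 rose, 5 fell and 8 did not pass, with a median of -0.047, where 16.6% and 19.3% of all genes tested rose and fell. The 5 became 3 with no filter and without untreated replicate 2 or 3 or TGF-β1 replicate 2. Those that rose included components of the complex and its amplifier. Stat2 had 3.73, 3.38 and 3.58 FPKM in untreated MSCs and 9.80, 8.79 and 9.51 FPKM with the treatment, and rose by 1.43 (± 0.085 SE, adjusted p = 3.38e-07). Irf9, its DNA-binding partner, rose by 1.43, and Irf7, which amplifies type I interferon expression, rose by 2.73 from 3.52 ± 0.499 to 22.8 ± 0.471 FPKM. No library overlapped between the groups in these genes. Irf5, which passed the filter through the untreated libraries alone, Irf1 and the receptor gene Ifngr2 fell by 1.09, 0.61 and 0.30, as did Jak1 and Stat3 above. Irf1 no longer passed without any one of 7 libraries, namely the untreated and the TGF-β1 libraries and treated replicate 1 (from -0.65 to -0.41), and Ifngr2 without untreated replicate 2 or 3, TGF-β1 replicate 2 or treated replicate 2 or 3 (from -0.30 to -0.24). With the replicate number as a block, with only the groups compared and with no filter, neither passed (-0.61, -0.61 and -0.60 for Irf1, -0.29, -0.30 and -0.28 for Ifngr2). Socs3, an inhibitor of JAK signalling, had 8.12, 7.95 and 8.13 FPKM without and 8.56, 8.56 and 8.86 FPKM with the treatment, with a log2 fold change of 0.14 that did not pass (adjusted p = 0.0527) although it passed against TGF-β1 alone (0.31, adjusted p = 0.0055). Socs3 passed with DESeq2 and with median-ratio scaling (0.15 in both) and without TGF-β1 replicate 1 (0.14).

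**Figure D4:**
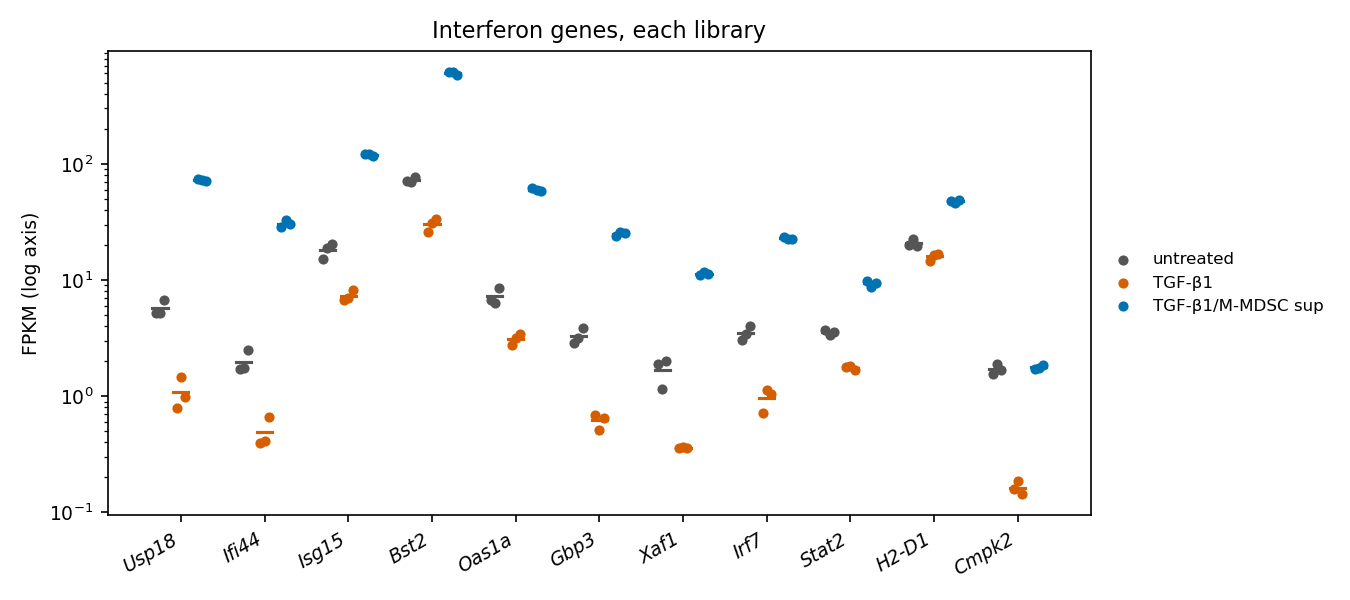
FPKM on a log axis of interferon-related genes in each of 3 untreated libraries, 3 with TGF-β1 and 3 with TGF-β1/M-MDSC supernatant (points), with group means as short lines. TGF-β1 libraries are the lowest and supernatant libraries the highest in every gene but Cmpk2, for which the supernatant libraries overlap the untreated ones.

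Of 17 tested genes of MHC class I and antigen processing, 12 rose, 0 fell and 5 did not pass against untreated MSCs, where 16.6% of all genes rose and 19.3% fell, with a median of 0.76 and of -0.56 with TGF-β1 alone. H2-D1 (chromosome 17, 35262730 to 35267499), a classical class I heavy chain, had 19.9, 22.5 and 19.8 FPKM in untreated MSCs and 47.5, 45.7 and 49.1 FPKM with TGF-β1/M-MDSC supernatant. The groups did not overlap, with a log2 fold change of 1.23 (± 0.079 SE, adjusted p = 6.10e-07). H2-K1, the other classical chain on this background, had 17.6, 24.0 and 19.6 FPKM and 26.7, 52.2 and 56.7 FPKM. Treated replicate 1 stood close to the untreated libraries. The rise of 1.18 (adjusted p = 0.0283) no longer passed without untreated replicate 1 or 3 (1.09 and 1.15) or without treated replicate 2 or 3 (1.07 and 0.99), nor with limma (1.08 and 1.05). H2-Q4, a class I gene of the Q region, rose by 1.05, with reads that its near-identical neighbours may share. Tap1, which carries peptides into the endoplasmic reticulum, and Tapbp, which loads them, rose by 1.07 and 0.97. The chaperone gene Calr was at 633 ± 13.7 and 648 ± 19.2 FPKM and did not pass (adjusted p = 0.12). Psme1 and Psme2, which encode the proteasome activator, did not pass either (adjusted p = 0.104 and 0.108), and both were above TGF-β1 alone, by 0.78 and 0.96. Psme2 passed without untreated replicate 1 (0.33).

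The 3 lowered genes back at baseline were Cmpk2, Apol6 and Ifi27l2a, which are all known to respond to interferon. Cmpk2 and Apol6 passed the filter through the untreated libraries alone, which favours a fall with TGF-β1 alone, so their placement is a description. Cmpk2 (chromosome 12, 26469204 to 26479837), a mitochondrial nucleotide kinase, had 1.55, 1.90 and 1.70 FPKM in untreated MSCs, 0.159, 0.187 and 0.144 FPKM with TGF-β1 and 1.71, 1.74 and 1.86 FPKM with TGF-β1/M-MDSC supernatant. The supernatant libraries lay inside the range of the untreated ones, with a log2 fold change of 0.086 (95% interval from -0.17 to 0.34, adjusted p = 0.609). Ifi27l2a had 17.2 ± 1.27 FPKM without and 14.7 ± 0.964 FPKM with the treatment, with every treated library a little lower. Apol6 had 1.55 ± 0.368 and 1.43 ± 0.128 FPKM, and its groups overlapped. When the limit on fold change was dropped, 2138 genes were lowered by TGF-β1, of which 1712 (80.1%) remained, 267 (12.5%) lay within the margin, 70 were unresolved and 89 were past baseline. Of the 267, 44 were also higher than with TGF-β1 alone (2.45% of all genes were), in whose libraries they had been chosen as lowered.

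Called genes were also counted where the test with TGF-β1 alone did not pass or had the opposite sign, and there were 67 of them above untreated MSCs and 16 below. Of the 67, 37 were the programme genes past baseline with more than a 2-fold rise, 15 were lowered less than 2-fold by TGF-β1 alone, and for 15 the test with TGF-β1 alone did not pass. In all, 59 of the 67 were also higher than with TGF-β1 alone, among them 7 of these last 15, and the 8 largest were the programme genes Ifi44, Usp18, Oas1g, Bst2, Oas1a, Gbp3, Xaf1 and Isg15 given above. A filter over all 12 libraries, which also reads those with supernatant, gave 126 in place of 67, of which 99 were also higher than with TGF-β1 alone. For all 16 genes below baseline the test with TGF-β1 alone did not pass, and 2 were also lower than with TGF-β1 alone, a predicted gene and Kctd20, where DESeq2 gave 6. The 16 became 5 with limma on log2(FPKM + 1) and 25 without TGF-β1 replicate 1 or 3, and the 2 became 1 without untreated replicate 1 or 3, any one of the TGF-β1 libraries or treated replicate 2. Kctd20 (chromosome 17, 28951950 to 28969549), a gene of the potassium channel tetramerisation domain family, had 11.0, 10.4 and 10.1 FPKM in untreated MSCs, 10.7, 9.93 and 10.3 FPKM with TGF-β1 and 4.40, 4.23 and 5.02 FPKM with TGF-β1/M-MDSC supernatant. The untreated and TGF-β1 libraries overlapped and the supernatant libraries lay below both, with a log2 fold change of -1.17 (± 0.245 SE, adjusted p = 0.00346). A further 72 genes reached an FPKM of 1 in all 3 supernatant libraries without passing the filter, which looks only at libraries without supernatant, and they were not tested.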

How the data were processed

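Bone marrow MSCs were profiled by poly(A) mRNA sequencing in 12 libraries, 3 in each of 4 groups. Per the study's methods and the submitters' processing notes, dUTP-stranded paired-end reads were handled with fastp and cutadapt 1.9, aligned with HISAT2 2.0.4 and assembled with StringTie 1.3.4d; the counting tool is not given in the sources used here. The authors deposited raw read counts per gene and FPKM, which they calculated, with 0.0001 in place of 0. Of nonzero counts up to 12, 44.3% were multiples of 4, so low counts may not be single fragments. Coordinates are GRCm38.

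Counts were scaled with TMM (factors 0.98 to 1.03) and fitted with edgeR 4.0.16 (R 4.3.3) by quasi-likelihood over all 4 groups, with Benjamini-Hochberg adjustment over the 11619 genes, tested first on simulated data. FPKM served for the filter, for printed levels and for limma 3.58.1 on log2(FPKM + 1) or log2(FPKM + 0.1). DESeq2 1.42.0, other scalings, filters and margins and leaving out each library were alternatives. The named genes are the markers the study displayed, the 8 largest rises and falls without overlap, the 5 largest of each class, the largest off baseline where TGF-β1 alone did not pass or went the other way, and in each of 21 lists the 5 largest changes and the 2 most abundant that did not pass. Tagln, Tpm2, Col11a1, Psme1, C3, Cfp, Ifit1, Ifit3, Ifitm3, Ddx58, Zbp1, Tlr3, Klhl2 and the list members given to complete a count of at most 5 were chosen after their values were seen. The members and lists were chosen with earlier results of these data known. Certain genes are not named here.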

Additional observations from a re-analysis of the deposited data

Results flagged for a closer look

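Results were picked out here when the effect of the supernatant on MSCs differed between the M-MDSC and the G-MDSC groups by a test of that difference itself. Of all genes tested, 14 were higher and 3 lower with M-MDSC supernatant (0.146% of the 11619 in either direction, edgeR quasi-likelihood test, adjusted p-value under 0.05), and 9 of the genes named above were among them.

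All but 2 were interferon-stimulated genes with a higher level in the M-MDSC group. Ifit3 had 29.9 ± 2.39 FPKM in the M-MDSC group and 12.3 ± 0.190 FPKM in the G-MDSC group, a log2 difference of 1.28 (adjusted p = 0.00314). Cmpk2 differed by 0.80 (adjusted p = 0.027), Gbp3 by 0.72 (adjusted p = 0.047), Isg15 by 0.70 (adjusted p = 0.0424) and Ifit1 by 0.67 (adjusted p = 0.00242). Bst2 had 605 ± 18.9 and 420.1 ± 24.0 FPKM, a difference of 0.53 (adjusted p = 0.0445), and the RNA sensor gene Ddx58 differed by 0.35 (adjusted p = 0.0183). The cytokine gene Lif went the other way, with 2.08 ± 0.171 and 3.58 ± 0.0338 FPKM (-0.78, adjusted p = 0.00314), as did the NF-κB feedback gene Nfkbiz (-0.54, adjusted p = 0.0298). Kidney tubule and hepatocyte markers were present in every G-MDSC supernatant library, at sums of 69.4 to 80.9 FPKM and 66.2 to 71.6 FPKM, and their part in these differences was not tested. The 2 contrasts against untreated MSCs share the untreated libraries.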

How the results depend on the processing

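The comparison was repeated under each alternative in turn. DESeq2 changed the scaling and the model together, limma used FPKM with its own model, and each other alternative changed 1 choice. With no filter on FPKM, 821 genes were called higher and 712 lower than in untreated MSCs. This fit held the genes with a count in at least 3 of the 12 libraries. Of 546 raised genes 493 remained (439 at 2-fold), 6 lay within the margin and 47 were unresolved, of 832 lowered genes 585 remained (516 at 2-fold) and 172 were unresolved, and 356 genes lay above baseline where TGF-β1 alone did not pass or went the other way, past-baseline programme genes included (214 also off TGF-β1 alone), and 123 below (7). With limma on log2(FPKM + 1), 197 and 242 genes were called, 166 of 173 raised genes remained (127 at 2-fold, 7 unresolved), 235 of 280 lowered genes remained (197 at 2-fold), 32 were past baseline and 5 lay below it where TGF-β1 alone did not pass or went the other way (1 also off TGF-β1 alone). The larger pseudocount shrinks the fold changes of low genes. With limma on log2(FPKM + 0.1), 26 lowered genes were unresolved. A filter over the 12 libraries gave 1 raised gene within the margin, 25 lowered genes unresolved and 126 genes above baseline where TGF-β1 alone did not pass or went the other way (99 also off TGF-β1 alone). Without a limit on fold change 1932 genes rose and 2242 fell, 1440 of 1913 raised genes remained (410 within the margin, 62 unresolved, 1 past), 1712 of 2138 lowered genes remained (267 within the margin, 70 unresolved, 89 past), 492 genes lay above baseline where TGF-β1 alone did not pass or went the other way (140 also off TGF-β1 alone) and 530 below (50). A 2-fold margin put 2 raised and 7 lowered genes at baseline, unadjusted p-values put 1 raised gene past baseline, and a fit of only the groups compared put 1 raised gene within the margin. Of genes below baseline that also differed from TGF-β1 alone, DESeq2 gave 6 and the filter over the groups compared 1.

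Same-numbered libraries did not deviate together, with correlations of their deviations from the group means between -0.20 and 0.11 over 18 pairs, so the numbers were not treated as pairs. With the replicate number as a block, 300 genes were called higher and 391 lower, and 1 gene below baseline also differed from TGF-β1 alone.

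Leaving out 1 library at a time gave 283 to 307 genes called higher and 387 to 410 lower. Raised genes numbered 264 to 277, of which 251 to 264 remained (205 to 225 at 2-fold), 0 to 1 lay within the margin, 11 to 21 were unresolved and 0 were past baseline. Lowered genes numbered 448 to 469, of which 371 to 396 remained (319 to 336 at 2-fold), 2 to 5 lay within the margin, 17 to 30 were unresolved and 45 to 51 were past baseline. Where TGF-β1 alone did not pass or went the other way, 61 to 72 genes lay above (58 to 62 also off TGF-β1 alone) and 14 to 25 below baseline (1 to 3). Of the single genes named, Apol6 changed sign without untreated replicate 3 (0.11, with a range of -0.24 to 0.11 over the libraries left out) and did not pass in the reported fit. Among the alternatives that kept all 12 libraries or the groups compared, calls of named genes were lost for Bub1, Cdkn1a, Fhl1, H2-K1, Ifngr2 and Irf1 and gained for Cd59a, Fosl1, Ldha, Oasl1, Rela and Socs3. Oasl1 passed with only the groups compared (0.38) and Fosl1 of the Ras and Erk1/2 list with limma (-0.13 in both fits), and the other values are given with the genes. The causes of these moves were not tested.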
